A study of Mus musculus with 11 samples.

Results

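The regions described here are the autosomal Xist pulldown peaks on mouse chromosome 11. They were chosen by position, as every peak on chromosome 11 of the build mm9 in 6 deposited lists, except those that overlap 95.75 to 96.5 Mb. There were 1405 such peaks of 19818 autosomal peaks in all. By list they were 110 of 1553 and 79 of 1148 in replicates 1 and 2 of day 4 (D4), 569 of 8227 and 535 of 7544 in replicates 1 and 2 of day 2 (D2), 87 of 1020 in female fibroblasts and 25 of 326 in male fibroblasts. The chromosome was picked with peak densities of these lists known, so density and its ranks are given as description, without a test. The window left out held 0 and 0 peaks of the D4 lists, 10 and 8 of the D2 lists, 0 of the female fibroblast list and 1 of the male list. In D2 replicate 1 its first and last peaks, at 95958599 to 95966958 and 96220942 to 96611454, had fold enrichments of 2.45 and 2.87, and the nearest kept peaks, at 95509322 to 95512041 and 96616074 to 96618627, had 2.57 and 2.50.

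The study located Xist RNA on chromatin by RNA antisense purification and DNA sequencing (RAP-seq), in which biotinylated probes against Xist are captured from crosslinked, sheared chromatin and the DNA that comes along is sequenced. The groups used were female epiblast-like cells (EpiLCs) at D4 (n = 2 libraries) and at D2 (n = 2), female mouse embryonic fibroblasts (MEFs, n = 1) and male MEFs (n = 1). EpiLCs were made from female embryonic stem cells, kept in LIF with the inhibitors CHIR99021 and PD0325901, by moving them into Activin A and bFGF. No further agent was added to any group, and the labels used here name no strain, genotype or cell line and do not say whether replicates were separate cultures. The lists cover autosomes and hold no expression values, so neither the cell types nor the X chromosome could be checked in them.

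As background, Xist is a noncoding RNA made from the X chromosome that female mammals inactivate. It spreads over chromatin from its own gene and recruits silencing factors, among them Polycomb complexes. Male cells normally keep Xist off, and the male MEF library serves as the control pulldown. Each peak carries a fold enrichment, the authors' linear ratio of pulldown to background as called, and a q value. Sequencing depth is unknown for all 6 libraries, and deeper libraries tend to yield more peaks, so differences in depth and differences in binding cannot be told apart in peak counts. No sequence of a peak is shown, since no mm9 genome was used here.

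By RefSeq gene names, chromosome 11 had the most protein-coding genes per Mb of the span that peaks cover. RefSeq, whose coordinates were not used for this count, lists 1609 such genes on it, or 14.0 per Mb of that span, the highest of 19 autosomes. Its coordinates served to order the landmark genes named below. Chromosome 7 followed closely with 13.6. Gene density over whole chromosome lengths was not computed, and the order could differ there. Peak density was 0.961 and 0.690 per Mb in D4 replicates 1 and 2, 4.97 and 4.67 per Mb in D2 replicates 1 and 2, 0.760 per Mb in female MEFs and 0.218 per Mb in male MEFs. Each list was denser here than on the other 18 autosomes together, by 1.47 and 1.42 times at D4, 1.43 and 1.47 times at D2 and 1.80 times in female MEFs. In male MEFs the excess was 1.61 times. The chromosome ranked 6 and 7 of 19 at D4, 3 and 2 at D2, 4 in female MEFs and 1 in male MEFs. Across the 19 autosomes, gene density and peak density had Spearman correlations of 0.405 and 0.367 at D4, 0.493 and 0.489 at D2 and 0.362 in female MEFs. For male MEFs the value was 0.235. These are descriptions over 19 chromosomes, and all lists share the genome's mappability and base composition.

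**Figure D1:**
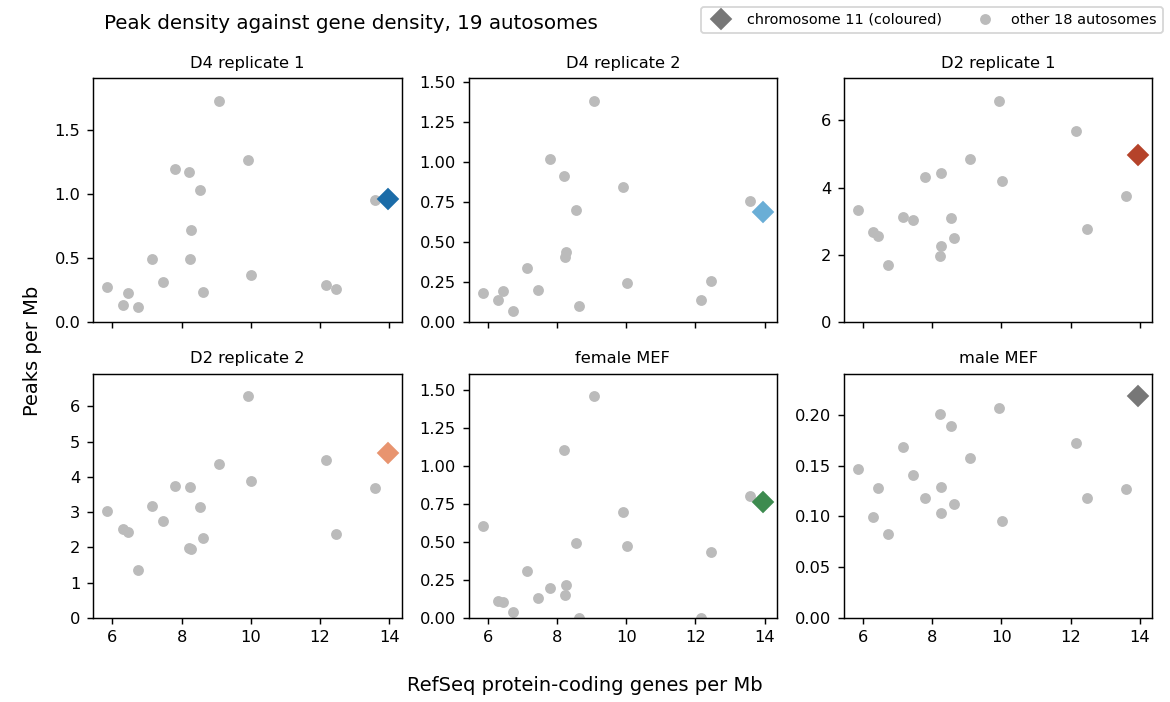
Peaks per Mb (vertical axis) against RefSeq protein-coding genes per Mb (horizontal axis) for the 19 autosomes, with a panel for each list. The coloured diamond is chromosome 11, which had 14.0 genes per Mb of the span that peaks cover, and grey points are the other 18 autosomes. It was the highest point of the male MEF panel, at 0.218 peaks per Mb, and was passed by other chromosomes in the other panels.

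The peaks on chromosome 11 did not reach the highest enrichments of the series. The top fold enrichment on it was 3.32 and 3.37 in D4 replicates 1 and 2, 3.56 and 3.66 in D2 replicates 1 and 2, 3.59 in female MEFs and 3.86 in male MEFs. On the other autosomes the highest values were 12.3 and 9.31 at D4, 14.1 and 11.8 at D2, 6.43 in female MEFs and 15.1 in male MEFs. In every list the strongest peak thus lay on another autosome. The other 18 autosomes held far more peaks (1443 against 110 in D4 replicate 1), which makes a higher maximum there likely. Maxima by single chromosome are not given. Median fold enrichment was close to theirs, at 2.86 and 2.86 at D4, against 2.82 and 2.85. At D2 it was 2.59 and 2.79, against 2.61 and 2.80. Female MEFs had 2.89, against 2.90, and male MEFs 2.90, against 2.91. Median peak length on chromosome 11 was 2795 and 2945 bp at D4 and 3972 and 3681 bp at D2. In female MEFs it was 7685 bp, the highest of the 6 lists, and in the male MEF list 1306 bp, the lowest. The D2 and female MEF lists had long members, with 16 and 8 peaks of at least 50 kb at D2 and 4 in female MEFs, and there were 0 in the D4 lists and in male MEFs. The longest peak was 16.8 and 19.2 kb in D4 replicates 1 and 2, 262 and 102 kb in D2 replicates 1 and 2, 490 kb in female MEFs and 5.97 kb in male MEFs. Peaks under 1 kb were 10 of 25 in the male list, against 7 of 87 in the female MEF list.

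**Figure D2:**
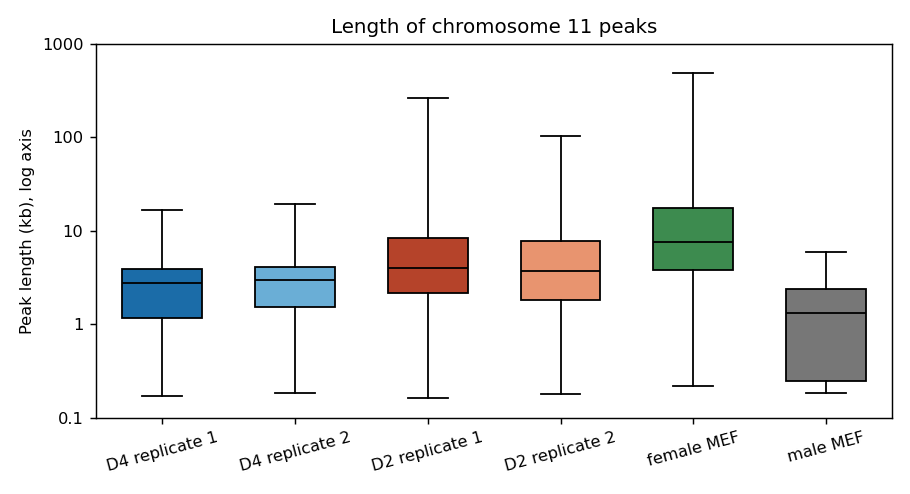
Length in kb (log axis) of every chromosome 11 peak in the 6 lists. Boxes span the quartiles with the median as a line, and whiskers reach the shortest and longest peak. Medians were 2795 and 2945 bp at D4, 3972 and 3681 bp at D2, and 7685 bp in the female and 1306 bp in the male MEF list.

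Between the days, the number of chromosome 11 peaks differed as in the pool of the other 18 autosomes. The length under them differed by more than in that pool, but not by more than on most single autosomes. The D4 libraries averaged 94.5 ± 21.9 peaks and the D2 libraries 552 ± 24.0 (SD, n = 2 each). D4 had 0.171 times the D2 number, and the same ratio, 0.171, was found over the other 18 autosomes. Within replicate 1 it was 0.193 and within replicate 2 it was 0.148. The length under peaks was 0.317 ± 0.0636 Mb at D4 and 4.89 ± 1.21 Mb at D2 (SD, n = 2 each), a D4 to D2 ratio of 0.0649, against 0.106 over the other 18 autosomes. By chromosome, the length ratio of chromosome 11 ranked 7 of 19 from the highest. The pooled 0.106 includes the highest ratios, 0.345, 0.199 and 0.169 on chromosomes 6, 15 and 4. The lowest was 0.0167 on chromosome 18. Both D4 libraries lay below both D2 libraries in number and in length on chromosome 11.

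The D4 to D2 ratio was 0.474 in number and 0.215 in length when peaks had to reach a fold enrichment of 3, with 19 and 17 such peaks at D4 and 13 and 63 at D2. In replicate 1 the D4 library then held more peaks than the D2 library. At a −log10 q of at least 2 the ratio in number was 0.167 and in length 0.0277.

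Length and strength of the peaks were measured apart from their number. The median peak length differed by -957 bp (D4 minus D2), with 2870 ± 106 bp at D4 and 3827 ± 206 bp at D2 (SD, n = 2 each). The difference was larger than the spread between replicates, and the two-sided exact permutation test over the 4 libraries gave p = 0.333, the smallest that 2 against 2 allows. On the other 18 autosomes the difference was -912 bp. Among peaks enriched 3-fold or more on chromosome 11 it turned to 521 bp. The median fold enrichment was 2.86 ± 0.00054 at D4 and 2.69 ± 0.143 at D2 (SD, n = 2 each), a difference of 0.170 (exact permutation p = 0.333), against 0.131 on the other 18 autosomes. It turned to -0.0424 among peaks enriched 3-fold or more. Over all peaks the difference depended on D2 replicate 1: it was 0.0688 without that library and 0.271 without D2 replicate 2.

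Peaks were spread unevenly along the chromosome. Peaks were counted at their midpoint in blocks of 1 Mb, 116 of them over the span of the peaks. At D4 the peaks filled 25 and 20 blocks in replicates 1 and 2, and at D2 they filled 70 and 67. Female MEF peaks filled 15 blocks and male MEF peaks filled 20. The 5 densest blocks of each list held 61.8% and 60.8% of its peaks at D4, 20.7% and 24.5% at D2 and 64.4% in female MEFs. In male MEFs they held 40%. The D4 and female MEF lists thus sat in a few blocks, and the D2 lists were spread over more of them. The D2 peaks were still uneven, with most lying beyond 52 Mb. Before 52 Mb most blocks held no D2 peak, and the fullest, 32 to 33 Mb, held 9 and 11.

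The 3 blocks from 112 to 115 Mb were the densest stretch of the EpiLC lists. The block from 114 to 115 Mb held 21 and 8 peaks in D4 replicates 1 and 2 and 27 and 37 in D2 replicates 1 and 2. Female MEFs had 11 peaks there and male MEFs 1. It was first by mean count at both days. The block from 113 to 114 Mb was second at both days, with 13 and 14 peaks at D4, 25 and 28 at D2, 11 in female MEFs and 2 in male MEFs. Here both D4 lists had fewer peaks than both D2 lists. The block from 112 to 113 Mb followed at D4, with 16 and 9 peaks, against 15 and 12 at D2, and the days overlapped. Female MEFs had 0 peaks in it and male MEFs 1.

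As background, RefSeq places Sox9, a transcription factor of cartilage and gonad development, in the distal part of chromosome 11, followed by Slc39a11, Sstr2, Cog1 and Fam104a. A little further on it lists Cdc42ep4, Sdk2, which encodes an adhesion molecule of synapses, Rpl38 and Ttyh2. These names were picked as landmarks after the counts were seen. The RefSeq table was on GRCm38 and the peaks on mm9, so no peak was assigned to a gene, and whether a peak lies in any of these genes was not computed.

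Other blocks that were dense at D2 held fewer or no peaks at D4. At 118 to 119 Mb there were 8 and 5 peaks at D4 and 23 and 23 at D2, with 2 in female MEFs and 3 in male MEFs. At 103 to 104 Mb there were 0 and 0 at D4 and 22 and 19 at D2, and at 85 to 86 Mb 0 and 2 at D4 and 16 and 23 at D2. Those blocks held 2 and 0 female MEF peaks and 0 male MEF peaks. Over 74 blocks with an EpiLC peak, both D4 lists lay below both D2 lists in 56, or 75.7%, near the 69.6% of blocks on the other 18 autosomes. Both D4 lists lay above both D2 lists in 1 block, or 1.35%, against 1.56% of blocks elsewhere.

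**Figure D3:**
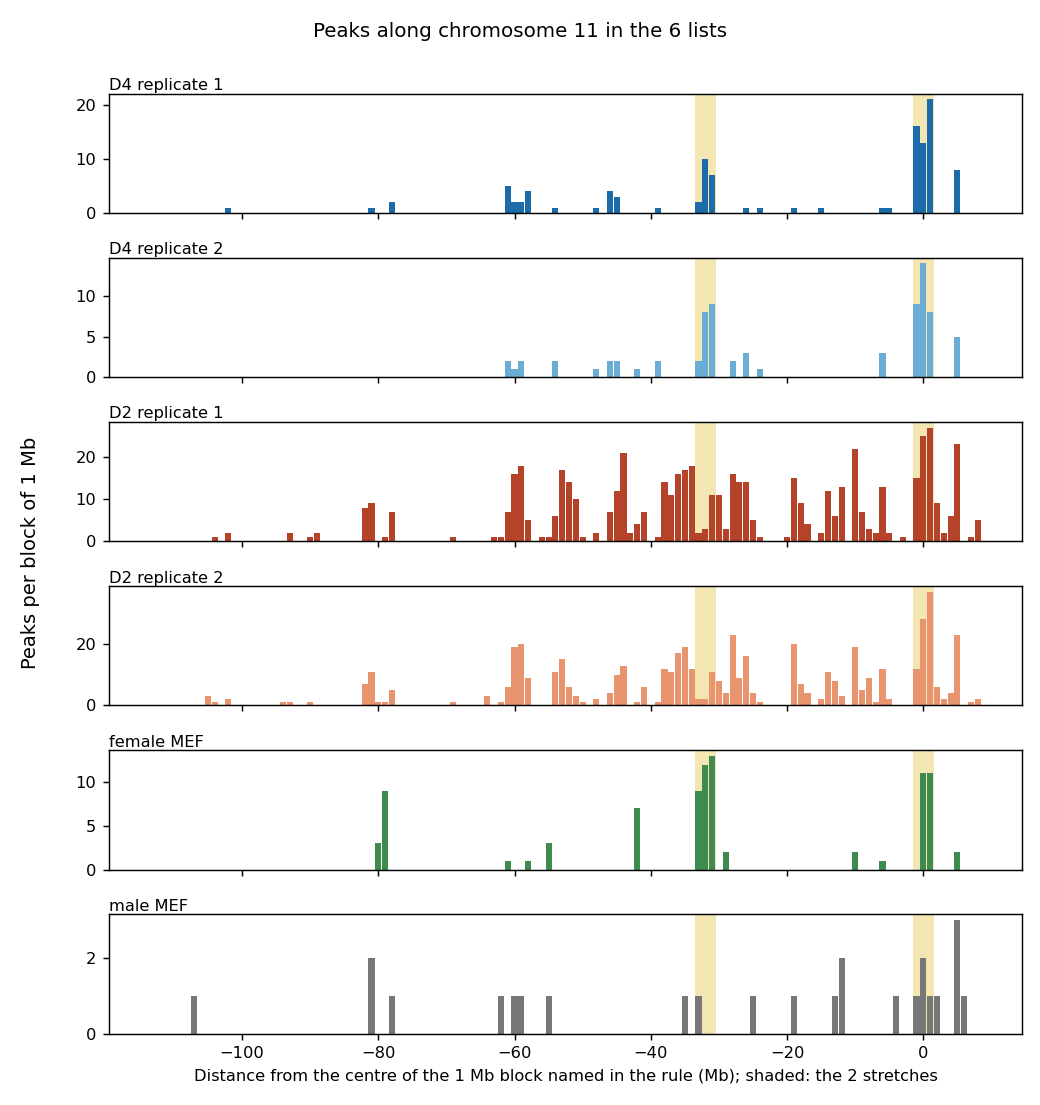
Peaks per block of 1 Mb (vertical axes, a scale for each list) along chromosome 11, against the distance in Mb from the centre of the 113 to 114 Mb block. Shading marks the upstream and downstream stretches, each of 3 blocks. The D4 and female MEF bars gather in the shaded blocks, and the D2 bars also fill the blocks between them.

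The block with more peaks at D4 was 81 to 82 Mb. It held 10 and 8 peaks at D4 and 3 and 2 at D2, with 12 in female MEFs and none in the male list (0 peaks). The next block, 82 to 83 Mb, held 7 and 9 at D4 and 11 and 11 at D2, and with 13 peaks it was the densest of the female MEF list. Over the 3 blocks from 80 to 83 Mb there were 19 and 19 peaks at D4 and 16 and 15 at D2, a ratio of 1.23, with 1.19 within replicate 1 and 1.27 within replicate 2. The length under these peaks was 42.4 and 57.3 kb at D4 and 102 and 124 kb at D2, a ratio of 0.441. The D4 lists thus had more peaks there over less length. Median fold enrichment there was 2.88 and 2.87 in D4 replicates 1 and 2 and 2.69 and 2.88 in D2 replicates 1 and 2, so the days overlapped. Female MEFs had 34 peaks and 577 kb there, and male MEFs had 1 peak of 1.31 kb.

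This stretch began where a long run of D2 blocks ended. In the 5 blocks from 75 to 80 Mb the D4 lists held 0 and 0 peaks and the D2 lists 76 and 71, over 786 and 470 kb. Female MEFs had 0 peaks and male MEFs 1 in those blocks. On chromosome 11 as a whole, 21 blocks held at least 10 peaks in both D2 lists, and 9 of them (42.9%) held no D4 peak in either list. On the other 18 autosomes this share was 28.7% of 254 blocks. Of the 9 blocks, 8 (88.9%) also held no female MEF peak, much as on the other 18 autosomes, where 65 of 73 such blocks (89.0%) held none.

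As background, RefSeq lists in the middle part of the chromosome Asic2, which encodes an acid-sensing ion channel subunit, and after it the chemokine genes Ccl2, Ccl7 and Ccl11. These too are landmarks by name and order, chosen after the counts were seen, with no peak assigned.

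Both stretches had higher D4 to D2 ratios than the rest of the chromosome. The 112 to 115 Mb stretch had 50 and 31 peaks at D4 and 67 and 77 at D2, a ratio of 0.562. The replicates differed, with 0.746 within replicate 1 and 0.403 within replicate 2. The length under these peaks was 177 and 148 kb at D4 and 990 and 805 kb at D2, a lower ratio of 0.181. Outside both stretches there were 41 and 29 peaks at D4 and 486 and 443 at D2, a ratio of 0.0753, and 143 and 66.5 kb at D4 against 4654 and 3101 kb at D2, a ratio of 0.0270. Female MEFs had 34 of 87 peaks in the 80 to 83 Mb stretch, 22 in the 112 to 115 Mb stretch and 31 elsewhere. Male MEFs had 1, 4 and 20 of 25. Both stretches were chosen after these counts were seen, so the ratios describe these libraries and were not tested.

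**Figure D4:**
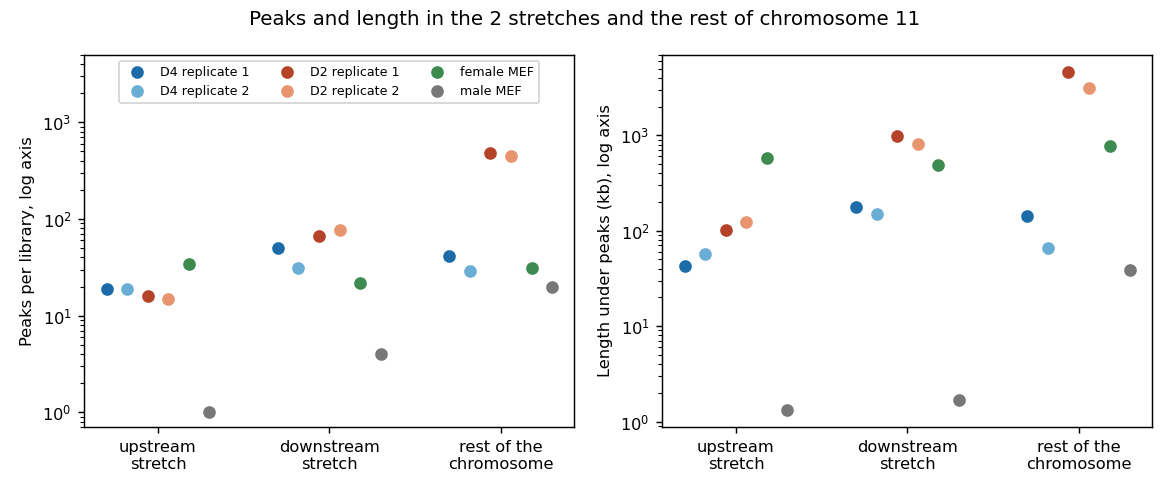
Peaks per library (left) and length under peaks in kb (right), both on log axes, in the upstream stretch (80 to 83 Mb), the downstream stretch (112 to 115 Mb) and the rest of chromosome 11. Each point is a library. In the upstream stretch the D4 points, at 19 and 19 peaks, lie above the D2 points, at 16 and 15, and in the rest they lie below them, at 41 and 29 against 486 and 443.

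Replicates had similar peak counts by block but shared few bases at D4. Across the 116 blocks the peak counts of D4 replicates 1 and 2 had a Pearson r of 0.877 (Spearman 0.794), and those of D2 replicates 1 and 2 an r of 0.932 (Spearman 0.925). These correlations are across blocks of 1 chromosome, which share mappability and gene content. By direct overlap of at least 1 bp, 18 of 110 D4 replicate 1 peaks (16.4%) met a replicate 2 peak, against 22.6% on the other 18 autosomes, and 18 of 79 replicate 2 peaks (22.8%) met replicate 1, against 33.3%. At D2, 234 of 569 replicate 1 peaks (41.1%) met replicate 2, against 45.6% on the other autosomes, and 304 of 535 replicate 2 peaks (56.8%) met replicate 1, against 59.4%. The length in both lists divided by the length in either was 0.0814 at D4, against 0.252 on the other autosomes, and 0.385 at D2, against 0.393.

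More peaks lay near a peak of the other replicate than overlapped one. Of the D4 replicate 1 peaks, 34.5% had a replicate 2 peak within 10 kb, 60% within 50 kb and 70.9% within 100 kb, against 42.8%, 66.6% and 76.0% on the other 18 autosomes. For D2 replicate 1 the shares were 62.6%, 86.3% and 92.3%, against 66.1%, 88.1% and 92.7%. Chromosome 11 was thus below the pooled share of the other 18 autosomes at each of these distances, by little at 100 kb for D2. It did not stand out among single chromosomes in direct overlap. There the D4 replicate 1 share ranged from 0% (chromosome 18) to 34.4% (chromosome 4), with chromosome 11 at 16.4%. Chromosomes 1, 2 and 9 lay lower, at 11.6%, 13.8% and 12.4%, and chromosomes 5, 6 and 7 higher, at 28.8%, 28.9% and 26.1%. The median gap to the nearest peak of the same list was 17.9 and 17.1 kb at D4 and 8.13 and 9.74 kb at D2.

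Segments covered in both lists of a day, called consensus regions here, numbered 19 over 47.8 kb at D4 and 338 over 2720 kb at D2. The D4 regions that ranked highest by fold enrichment, averaged over both lists, lay mostly in the stretches named above. The first was 112863076 to 112864414 (fold enrichments 3.03 and 3.15 in D4 replicates 1 and 2), and the second was 112810387 to 112812610 (2.89 and 3.12). Next came 81579982 to 81583604 (2.90 and 3.05) and then 52839323 to 52843275 (2.94 and 2.94). None of these 4 overlapped a peak of either D2 list, of female MEFs or of male MEFs. The fifth, 112852226 to 112853591 (3.08 and 2.85), overlapped a D2 replicate 1 peak of fold enrichment 2.58. The longest D4 regions were 113890248 to 113903384 (13.1 kb) and 113911048 to 113916567 (5.52 kb), and both were also called in both D2 lists and in female MEFs.

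Few D4 consensus regions of chromosome 11 lay in the D2 consensus. The count was 5 of 19 (26.3%), against 71% of 383 regions on the other 18 autosomes. Of the 8 autosomes with at least 10 D4 consensus regions, chromosome 11 had the lowest share, and the other 7 ranged between 61.3% and 82.6%. The share depended on D2 replicate 2: against D2 replicate 1 alone it was 57.9%, and against replicate 2 alone 36.8%. With the lists cut to equal number it was 10.5%. Counting a region of either D2 list, it was 12 of 19 (63.2%), against 84.3% elsewhere, and 7 D4 regions had no D2 peak. With 19 regions on 1 chromosome the difference from the other autosomes was not tested.

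Most D2 regions had no D4 counterpart. Of the 338 D2 consensus regions, 285 (84.3%) overlapped no peak of either D4 list, and the share on the other 18 autosomes was 84.4%. The 53 regions with a D4 peak were longer, with a median of 6159 bp, against 2873 bp for the 285 without one. A longer region is also easier to overlap. Their median fold enrichments were 2.72 and 2.84 in D2 replicates 1 and 2, against 2.64 and 2.80 for those without a D4 peak. In the 112 to 115 Mb stretch 28 of 65 D2 consensus regions had a D4 peak, in the 80 to 83 Mb stretch 2 of 6, and elsewhere 23 of 267. A female MEF peak was also present at 25 of the 53 regions with a D4 peak (47.2%) and at 28 of the 285 without one (9.82%). The greater length of the 53 regions also makes a female MEF peak easier to meet, and 28 of them lay in the 112 to 115 Mb stretch. The part of length and position in these 2 shares was not tested, and the shares are not given for the other 18 autosomes. With the lists cut to equal number, the share without a D4 peak was 46.7% of 15 regions.

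The strongest D2 regions lay outside both stretches. By mean rank they were 67735081 to 67736236 (fold enrichments 3.03 and 3.44 in D2 replicates 1 and 2), 77028565 to 77030501 (3.06 and 3.17), 51813614 to 51814130 (3.44 and 3.11) and 87457287 to 87558327 (2.92 and 3.15). The first also met a D4 replicate 1 peak and the fourth, of 101 kb, a peak of each D4 list. The fifth was a 49 bp segment at 53793375 to 53793423 (3.03 and 3.01). The longest D2 regions were 114908511 to 115010814 (102 kb), 87457287 to 87558327, 114599979 to 114697957 (98.0 kb), 114724467 to 114799000 (74.5 kb) and 87363646 to 87431313 (67.7 kb). Thus 3 of the 5 longest began in the 114 to 115 Mb block, and of the 7 regions of at least 50 kb, 4 had a D4 peak.

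Female MEF peak counts by block were closer to those of D4 than to those of D2. The counts had an r of 0.617 and 0.711 with D4 replicates 1 and 2 and of 0.258 and 0.312 with D2 replicates 1 and 2, over 116 blocks. Without the 6 blocks of the 2 stretches, r was 0.0991 and 0.136 with D4 and 0.0302 and 0.0169 with D2. The stretches were chosen after these counts were seen, so leaving them out lowers r by construction. Over all 116 blocks, the male MEF control list had an r of 0.404 and 0.377 with D4 replicates 1 and 2. With D2 replicates 1 and 2 the male list had 0.443 and 0.450, above the female MEF values. By overlap, 22 of 87 female MEF peaks (25.3%) met a D4 peak in either list, against 23.8% on the other 18 autosomes, and 34 (39.1%) met a D2 peak, against 46%. Of the 22 with a D4 peak, 12 were in the 80 to 83 Mb stretch, 9 in the 112 to 115 Mb stretch and 1 elsewhere. Of all 87, 16 met both days, 6 met D4 only, 18 met D2 only and 47 met neither. The shares were 18.4%, 6.90%, 20.7% and 54.0%, against 19.7%, 4.07%, 26.3% and 49.9% of 933 female MEF peaks on the other 18 autosomes.

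Seen from the EpiLC lists, sharing with female MEFs was more common here than in the pool of the other 18 autosomes. Of the 19 D4 consensus regions, 10 (52.6%) overlapped a female MEF peak, against 29% on the other 18 autosomes. Of the 338 D2 consensus regions, 53 (15.7%) did, against 6.33%. The female MEF list covered 1.60% of this chromosome, against 0.546% of the other autosomes, and the part of that in the shares was not tested. It covered chromosomes 4 and 15 more densely, at 27.3 and 20.5 kb per Mb against 16.0 on chromosome 11. Chromosomes 10 and 19, which are in the pool, held 0 female MEF peaks. The shares are not given by single chromosome, so chromosome 11 cannot be ranked by them.

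Some female MEF peaks lay where EpiLC lists held few. The block from 34 to 35 Mb had 9 female MEF peaks, against 0 and 0 at D4 and 1 and 1 at D2, and the block from 71 to 72 Mb had 7, against 0 and 1 at D4 and 4 and 1 at D2. Both blocks were chosen after their counts were seen. The female MEF peak of highest fold enrichment was 113939696 to 113945045 (3.59), which met a peak of D2 replicate 2 and of no other list. The second was the longest, 118343822 to 118833440 (3.48), a 490 kb peak that made up 26.7% of the length of the list on this chromosome. D4 replicates 1 and 2 covered 9.97% and 2.69% of it in 8 and 5 peaks, D2 replicates 1 and 2 covered 43.4% and 20.5% in 16 and 18 peaks, and the male list covered 0.280% in 2 peaks. The next longest were 114005807 to 114203353 (198 kb) and 82168427 to 82299150 (131 kb), and both met peaks of all 4 EpiLC lists.

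Segments covered in all 5 female lists numbered 3, over 4.83 kb. They were 118666363 to 118667667, 113911937 to 113914163 and 113884195 to 113885489. The first lies inside the 490 kb female MEF peak and had fold enrichments of 2.85 and 3.11 at D4, 2.72 and 2.75 at D2 and 3.48 in female MEFs. No segment was covered in all 6 lists. The same counts are not given for the other autosomes, so whether these are few or many was not tested.

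The male MEF list was densest on chromosome 11 among the autosomes, but its 25 peaks were scattered and, by median, shorter than those of the other lists. They lay in 20 blocks, with at most 3 in a block, at 118 to 119 Mb, and 2 each at 32 to 33, 101 to 102 and 113 to 114 Mb. Their median length, 1306 bp, was above the 994.5 bp of male MEF peaks on the other 18 autosomes. Chromosome 9 held 25 male peaks too, at 0.206 per Mb, and it was ahead of chromosome 11 by length under peaks. The fold enrichment of 20 of the 25 lay between 2.86 and 2.95. The other 5 were 114792192 to 114792381 (3.86), 80297770 to 80299075 (3.57), 101992936 to 101994252 (3.47), 113978696 to 113978889 (3.42) and 51416522 to 51421566 (3.24).

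Of the male peaks 2 (8%) met a D4 peak in either list, against 6.33% on the other 18 autosomes. A D2 peak was met by 9 (36%), against 40.7%. A female MEF peak was met by 4 (16%), against 4.67%, and 2 of these 4 lay in the single 490 kb female MEF peak. From the female side, 3 of 87 female MEF peaks (3.45%) met a male peak, against 1.5% elsewhere. No D4 consensus region (0 of 19, against 0.522% elsewhere) and 4 of 338 D2 consensus regions (1.18%, against 1.23%) met a male peak. The male peak at 113978696 to 113978889 met peaks of D4 replicate 2, both D2 lists and female MEFs. The strongest, at 114792192 to 114792381, lay inside a D2 consensus region of 74.5 kb and met no D4 or female MEF peak. Of the 25 male peaks, 14 (56%) met no peak of any female list, near the 55% of 300 male peaks on the other 18 autosomes. The lowest fold enrichment in the male list here was 2.86, against 2.76 in the female MEF list and 2.18 and 2.38 in the D2 lists.

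**Figure D5:**
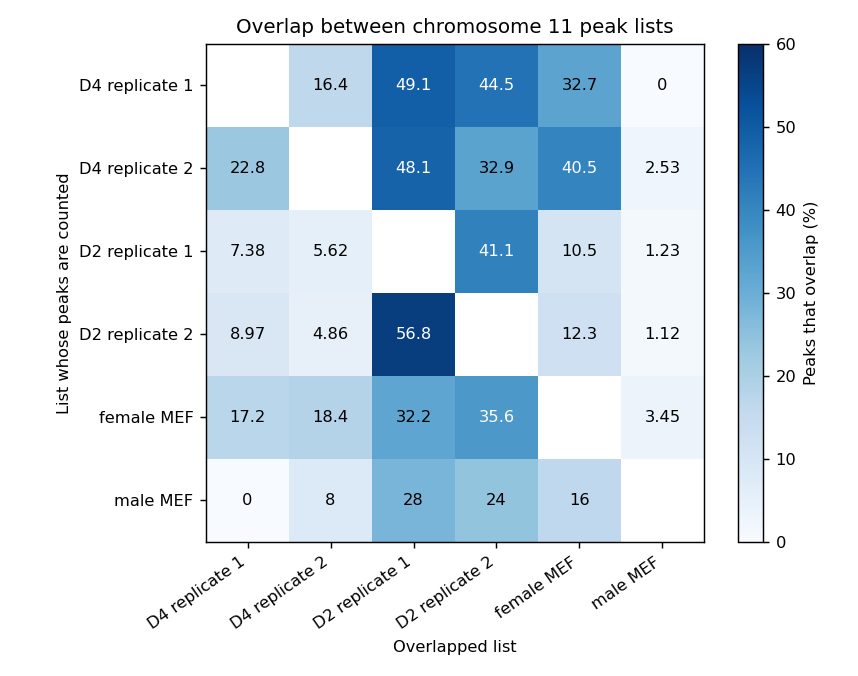
Percent of the chromosome 11 peaks of each list (rows) that overlap a peak of another list (columns) by at least 1 bp. D4 rows reach 49.1% and 48.1% in the D2 replicate 1 column, below the 66.3% and 62.1% of the other 18 autosomes. The male MEF column does not pass 3.45%, its value in the female MEF row, against 1.50% on the other 18 autosomes. Values of the other autosomes are not drawn.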

How the data were processed

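The submitters' processing notes name MACS2 2.2.7.1, besides bedtools 2.26.0, Bowtie2 2.2.9, Picard, SAMtools 1.9 and Trim Galore 0.4.1, and the build mm9. The input each list was called against, and all settings, are not given in the sources used here. Each library has 1 deposited list, without a header. The authors deposited, for each peak, a fold enrichment (linear ratio), a −log10 p, a −log10 q and a score, which was not used.

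From these, peaks were counted by midpoint in blocks of 1 Mb and lists were compared by overlap of at least 1 bp (Python 3.11.15, numpy 2.4.6, pandas 2.3.3). Density was taken over the span of all lists' peaks. Interval steps were tested on 20 simulated sets, base by base. D4 and D2 were compared over libraries with an exact permutation test. Coordinates are mm9, counted from 1.

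The chromosome, the blocks and the gene lists were chosen with earlier results of these data known. Named blocks were the densest per group (5 for D2, 3 for the others) and 113 to 114 Mb. Named regions were the 5 strongest and 5 longest consensus regions of each day, and the 5 strongest and 3 longest peaks of each MEF list. Under the naming rule no gene was to be named without an mm9 annotation. The landmark genes, both stretches and the blocks at 34, 71, 75 to 80 and 80 to 81 Mb fall outside the rule and were chosen after their values were seen. Gene lists and shares of genes overlapped were not computed, since the RefSeq table was on GRCm38.p6. The replicate number marks, at replicate 1, data deposited earlier per the labels, and was used as a block only as an alternative.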

Additional observations from a re-analysis of the deposited data

How the results depend on the processing

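The D4 mean stayed below the D2 mean in number and length under every alternative run, with D4 to D2 ratios of 0.0753 to 0.474 in number and 0.0270 to 0.215 in length. With the replicate block the ratios were 0.169 and 0.0653, and the block changed no direction. No p passed 0.05 in any of them, which 2 against 2 cannot do. Without a replicate the ratios were 0.143 to 0.199 and 0.0552 to 0.0787. With only peaks enriched 3-fold or more kept, the median length was 521 bp longer at D4 and the median fold enrichment differed by -0.0424 (D4 minus D2). The cause was not tested.

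At a −log10 q of at least 2, replicate overlap was 17.5% and 25.5% at D2 and 0% and 0% at D4, 100% of 13 D2 consensus regions had no D4 peak, 0% of 3 female MEF peaks met a male peak and 0% of 5 male peaks met a D4 peak. No D4 consensus region was left there, so its share has no value. With overlap of at least 50% of the shorter region, replicate overlap was 33.9% and 48.4% at D2 and 9.09% and 12.7% at D4. With lists cut to equal number, 10.5% of D4 consensus regions lay in the D2 consensus, 46.7% of D2 consensus regions had no D4 peak, and 19.5% of female MEF and 0% of male peaks met a D2 peak. Leaving out a replicate gave 29.1% to 57.9% of D4 regions in D2 and 87.9% to 93.2% of D2 regions without D4. By length under peaks the chromosome ranked 7 in D4 replicate 1, 3 in D2 replicate 2, 3 in female MEFs and 2 in male MEFs.

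Without both stretches, block r was 0.739 between D4 replicates, 0.360 for D4 and D2 replicate 1, 0.0991 and 0.136 for D4 replicates 1 and 2 with female MEFs, 0.0302 and 0.0169 for D2 replicates 1 and 2 with female MEFs, and 0.0527 for female with male MEFs. By length it was 0.350 for D4 and D2 replicate 2, 0.514 for D4 replicate 2 with female MEFs and 0.379 for D2 replicate 1 with female MEFs. In blocks of 2 Mb it was 0.344 for female with male MEFs. Leaving out both stretches was chosen after seeing the data. The shares of genes overlapped were not run.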

Other observations

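Several male MEF peaks on chromosome 11 carried identical values. Of the 25, 14 had the same −log10 q of 1.54, and 3 had the same fold enrichment of 2.92 and the same −log10 p. These 3, at 58838299 to 58838548, 118474923 to 118475459 and 118831678 to 118832513, were all under 1 kb, and all 3 lay inside a female MEF peak. The last 2 lay inside the same one, of 490 kb. In the other lists, 4 of 110 and 2 of 79 peaks in D4 replicates 1 and 2, 7 of 569 and 10 of 535 in D2 replicates 1 and 2, and 0 of 87 in female MEFs shared both values with another peak of the list on this chromosome.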
